A study of Mus musculus and Acomys cahirinus with 84 samples.

Results

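The complement genes described here are 8 of the 56980 genes in the mouse table and 8 of the 19818 genes in the *Acomys cahirinus* table, chosen by symbol: C1ra, C1s1, C4b, C3, Cfb, Serping1, Cd55 and Cd59a. They were measured by RNA sequencing in primary skin fibroblasts of mice labelled C56BL6, of wild mice and of the African spiny mouse *A. cahirinus*, which is a rodent of another genus. Untreated cultures, cultures given 10 Gy and cultures given 20 Gy were collected at 24 h and at 12 d, and a further untreated group, labelled as passaged, was collected at 12 d. Each of the 21 groups held 4 libraries, 84 in all. No label names a genetic modification or any treatment besides irradiation and passage, and none gives the age or sex of the animals. Within a population the replicate numbers 1 to 4 stand for 4 animal codes that recur in every group, so by their labels the groups of a population are cultures of the same 4 animals. The labels name no inbred strain for the wild mice. All 24 h libraries carry 1 batch label and all 12 d libraries another. Since time and batch thus cannot be told apart, tests were made within a time only.

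Complement is a cascade of plasma proteins that marks surfaces for removal and can perforate membranes. In the classical pathway, C1r cleaves C1s within the C1 complex and C1s cleaves C4 and C2, which together form an enzyme that cleaves C3. The alternative pathway cleaves C3 with an enzyme built on factor B. C1ra and C1s1 are the main mouse genes for C1r and C1s, C4b encodes C4, C3 encodes the central component and Cfb encodes factor B. Serping1 encodes C1 inhibitor, a serpin that blocks C1r and C1s. Cd55 encodes decay-accelerating factor, which dissociates the C3-cleaving enzymes on cell surfaces, and Cd59a encodes a membrane protein that blocks assembly of the membrane attack complex. The liver makes most plasma complement, and fibroblasts are also known to make several early components and C1 inhibitor.

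On GRCm39, the build of the mouse table, the early classical genes were C1ra (ENSMUSG00000055172, chr6:124489364-124500402, plus strand), C1s1 (ENSMUSG00000038521, chr6:124507304-124519318, minus strand) and C4b (ENSMUSG00000073418, chr17:34947354-34962856, minus strand). The central and alternative genes were C3 (ENSMUSG00000024164, chr17:57510970-57535136, minus strand) and Cfb (ENSMUSG00000090231, chr17:35075350-35081494, minus strand). The regulators were Serping1 (ENSMUSG00000023224, chr2:84595731-84605788, minus strand), Cd55 (ENSMUSG00000026399, chr1:130366764-130390481, minus strand) and Cd59a (ENSMUSG00000032679, chr2:103926146-103945699, plus strand). C1ra and C1s1 are neighbours on chromosome 6, and C4b and Cfb lie in the same region of chromosome 17.

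Promoter sequence was searched because several of these genes are known to respond to cytokines, and 4 of the 8 promoters are shown: those of C3, the member with the highest mean per length in untreated mouse cells at 12 d, and the 3 with a motif match. Each is the 250 bases before the annotated start, 5′ to 3′ on the gene's strand, read from the GRCm39 genome with GENCODE starts. Capitals mark matches to a motif on either strand. The windows are chr17:57535156-57535405 on the minus strand, chr17:34962913-34963162 on the minus strand, chr17:35081560-35081809 on the minus strand and chr2:103925882-103926131 on the plus strand.
C3: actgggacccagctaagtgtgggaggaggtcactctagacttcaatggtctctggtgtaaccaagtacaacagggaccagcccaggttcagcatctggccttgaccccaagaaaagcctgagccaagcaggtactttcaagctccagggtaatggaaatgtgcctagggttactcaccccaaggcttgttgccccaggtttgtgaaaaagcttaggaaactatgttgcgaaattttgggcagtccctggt
C4b: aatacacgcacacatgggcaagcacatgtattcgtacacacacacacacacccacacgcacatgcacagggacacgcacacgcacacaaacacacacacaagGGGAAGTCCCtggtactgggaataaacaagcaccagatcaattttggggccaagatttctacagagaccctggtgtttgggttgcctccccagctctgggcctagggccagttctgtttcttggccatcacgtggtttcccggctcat
Cfb: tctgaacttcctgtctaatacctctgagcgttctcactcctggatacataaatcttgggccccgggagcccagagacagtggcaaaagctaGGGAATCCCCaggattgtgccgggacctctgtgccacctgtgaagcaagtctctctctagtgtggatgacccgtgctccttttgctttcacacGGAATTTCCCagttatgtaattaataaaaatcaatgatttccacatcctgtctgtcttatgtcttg
Cd59a: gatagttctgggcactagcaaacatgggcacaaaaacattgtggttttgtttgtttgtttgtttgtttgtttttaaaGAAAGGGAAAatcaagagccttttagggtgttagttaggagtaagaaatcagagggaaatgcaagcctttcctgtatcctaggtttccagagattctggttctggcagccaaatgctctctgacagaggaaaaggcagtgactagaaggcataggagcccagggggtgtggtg
The C4b promoter held an NF-kB motif at bases -148 to -139 from the start, on the opposite strand. Cfb held NF-kB matches at -159 to -150, where both strands match, and at -66 to -57 on the opposite strand. Cd59a held the interferon-stimulated response element, searched as GAAANNGAAA, at -173 to -164. None of the 3 motifs, including the gamma-activated site searched as TTCNNNGAA, was found in the windows of C3, C1ra, C1s1, Serping1 or Cd55. Of 21770 promoter windows of the same length, one for each protein-coding gene, 4.2% held the NF-kB motif, 3.3% the interferon element and 7.7% the gamma-activated site. These are letter matches only.

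Total counts per library ranged over 26.65 to 39.82 M for C56BL6, 17.42 to 35.98 M for wild and 25.55 to 52.86 M for *A. cahirinus* cultures. Levels are given as CPM, counts per 1 M counts of the library. A floor of 3 counts was 0.075 to 0.113 CPM, 0.083 to 0.172 CPM and 0.057 to 0.117 CPM in turn. The wild 24 h 10 Gy replicate 1 library was the smallest, and genes with a count numbered 17843 there where its 3 companion libraries had 21846 to 22253. In C56BL6 mice, replicate 1 stood apart: the keratins Krt5 and Krt14 summed to 833 CPM in its untreated 12 d library, and the listed keratinocyte genes to 192.3 to 833.6 CPM over its 12 d libraries. In wild mice, the libraries labelled replicate 1 disagreed between 12 d and 24 h, and which of them depart from their label was not settled. Genes were counted that were at or above 1 CPM in all libraries of 1 number and at 0 counts in all libraries of another. By this count, 17 genes separated the 12 d libraries labelled replicate 1 from the 24 h ones. The 24 h ones were separated by 7 to 41 genes from the other numbers. The 12 d ones were separated by 0 genes from replicate 4 at either time. A count of 0 alone does not show a shared animal. It was also 0 between C56BL6 replicates 3 and 4 and between all *A. cahirinus* numbers. The other 3 wild numbers were separated by 0 genes from their own number at the other time, and by 7 to 46 genes from every other number apart from the replicate 1 libraries at 12 d. Counts of members called with wild mice at 12 d by edgeR, with and without pairing, and by DESeq2 are therefore also given without the libraries labelled replicate 1, apart from counts without the expression filter. In comparisons between populations this leaves out replicate 1 of both. Paired counts with wild mice at 24 h keep the libraries labelled replicate 1.

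Some members share sequence with other genes, and reads that fit several genes were not counted. For Cfb, 79.5% of its exon bases overlap Gm20547 on the same strand and cannot be assigned, so its counts come from the remainder. Shares of 75-base stretches also found in other genes were 42.4% for C1ra (mainly C1rb), 28.3% for C1s1 (C1s2 and Gm16567), 25.1% for C4b (mainly C4a), 24.3% for Cd55, 16.9% for Cd59a (Cd59b), 2.3% for C3 and 0% for Serping1. Levels of the members with high shares are uncertain. Counting ignored strand, so reads of C1s1 and of Gm16567, and of Cd55 and of Gm16083, cannot be told apart where these antisense pairs overlap. The *A. cahirinus* models differ in length (C4b has 1943 exon bases there and 5695 in mouse), and levels are not compared between species.

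Per length, untreated mouse fibroblasts at 12 d were richest in C3, C1 inhibitor and the C1 proteases. In C56BL6 mice, CPM per kilobase of exon (RPKM) were 262 ± 127 for C3, 211 ± 155 for Serping1, 207 ± 59.5 for C1s1 and 112 ± 41.7 for C1ra (SD, n = 4 throughout). C4b followed at 44.4 ± 31.2, then Cd55 at 9.07 ± 4.89, Cd59a at 6.66 ± 3.26 and Cfb at 1.08 ± 0.754 RPKM. The mean ± SD of each pair of neighbours from C3 down to Cd59a overlapped. These genes were measured in the same 4 libraries, so overlap of the spread between animals does not decide their order. Per length, C1s1 lay above C1ra, C1ra above C4b and C4b above Cd55 in each library, and the other neighbours among these 7 crossed. The order was not tested. The Cfb value divides by all exon bases, most of which cannot be counted, so it is too low and its place in the order is uncertain here and in wild mice. In wild mice the same 4 genes were highest, with 185 ± 222 RPKM for C3, 153 ± 57.5 for C1s1, 124 ± 73.8 for Serping1 and 114 ± 40.6 for C1ra, all overlapping. C4b stood there at 40.8 ± 15.2, Cd59a at 26.1 ± 17.1, Cd55 at 3.07 ± 2.48 and Cfb at 0.554 ± 0.21 RPKM, with C4b and Cd59a overlapping. In *A. cahirinus* Serping1 was highest at 42.6 ± 6.77 RPKM, and the next were C1s1 at 1.8 ± 0.54 and C4b at 1.64 ± 0.986 RPKM. Cd55 at 0.78 ± 0.694, C1ra at 0.475 ± 0.198, Cfb at 0.287 ± 0.0532 and C3 at 0.0497 ± 0.0314 RPKM followed, and neighbours from C1s1 down to Cfb overlapped. *A. cahirinus* Cd59a held at most 2 counts in any library.

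At 12 d after irradiation, C56BL6 fibroblasts held less mRNA of the C1 proteases. C1ra was 4.17-fold lower and C1s1 3.18-fold lower at 20 Gy than in untreated cultures, and both fell by a like amount at 10 Gy. C4b, C3, Cfb and Serping1 were lower at 20 Gy in each of the 4 animals but did not pass unpaired and passed with animals paired. Cd55 and Cd59a did not pass either test. C1ra stood at 188, 271, 437 and 435 CPM in untreated replicates 1 to 4 and at 33.9, 77.7, 90 and 109 CPM at 20 Gy. All 4 irradiated libraries lay below all 4 untreated ones (log2 fold change -2.06 ± 0.40, edgeR adjusted p = 0.00869). C1s1, the partner that C1r activates, stood at 443, 536, 801 and 809 CPM untreated and at 97.8, 197, 223 and 275 CPM at 20 Gy. Here too the groups did not overlap (log2 fold change -1.67 ± 0.33, edgeR adjusted p = 0.00938). These were 2 of 8 members lower, where 13.6% of all genes tested were lower, and 2 members did not overlap, where 17.6% of genes lay fully below. The median log2 fold change was -1.67 over the members and -0.01 over all genes. The count in either direction was 6 without replicate 1 (40% of genes), 0 without replicate 2 (10.9% of genes) and 0 without replicate 3 (7.18% of genes), so neither gene passed without replicate 2 or 3.

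**Figure D1:**
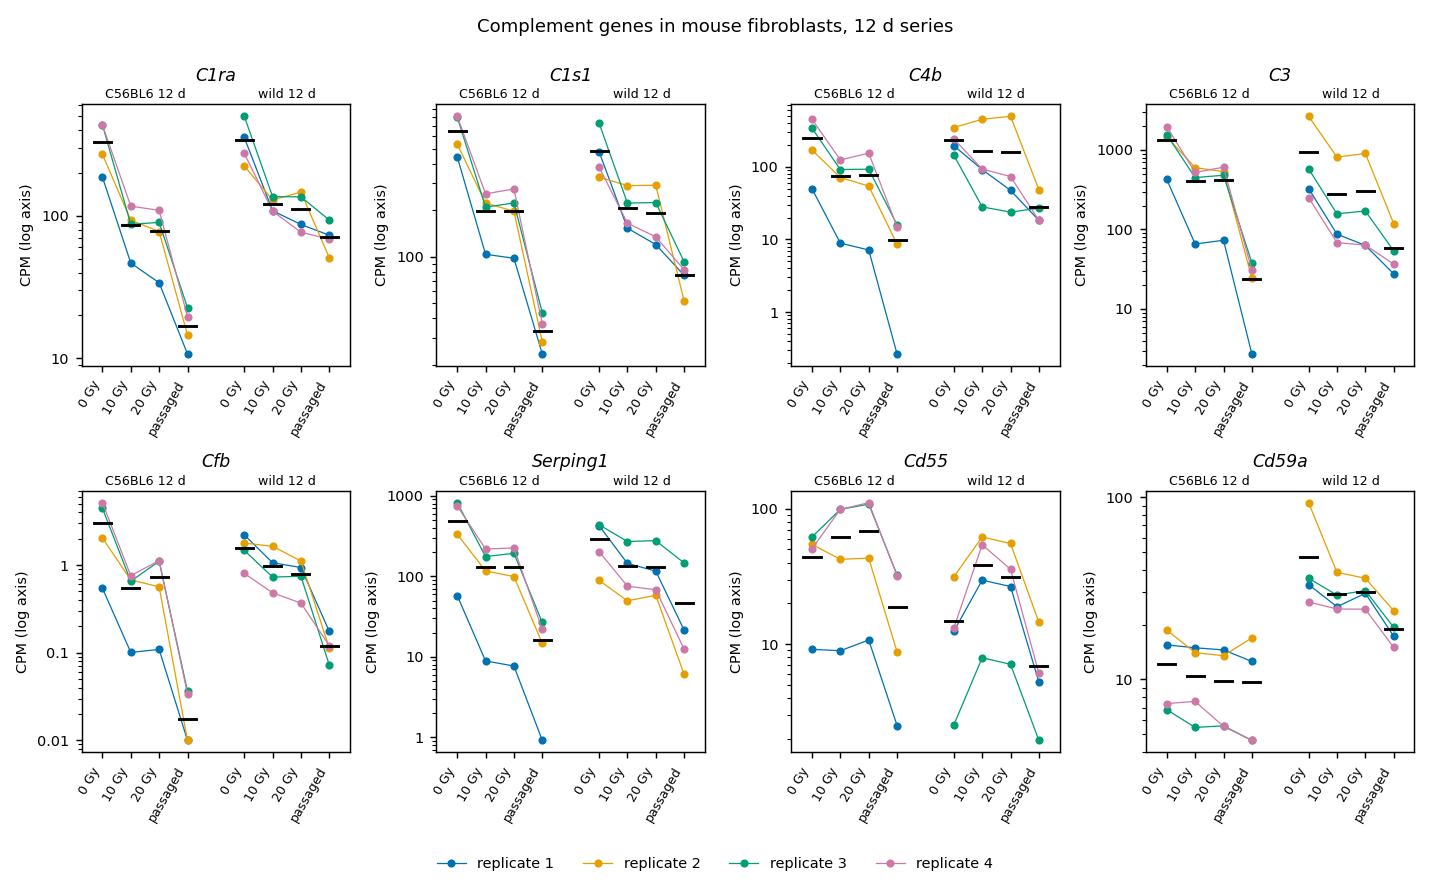
Levels of the 8 complement genes in mouse fibroblasts at 12 d, in CPM on a log axis, for C56BL6 and wild mice in untreated, 10 Gy, 20 Gy and passaged cultures (4 libraries each, coloured by replicate number, with lines joining a number and black bars at group means; 0 is drawn at 0.01). Untreated C56BL6 C1ra libraries sit at 188 to 437 CPM, all above the 20 Gy libraries at 33.9 to 109 CPM.

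C4b, whose protein is the substrate of C1s, stood at 49.9, 170.5, 341 and 451 CPM in the untreated C56BL6 replicates and at 7.17, 54.4, 92.9 and 154 CPM at 20 Gy. Each animal was lower after irradiation, but replicate 1 was low in both groups and the ranges overlapped. Without pairing it did not pass (log2 fold change -1.68 ± 0.89, edgeR adjusted p = 0.196), and paired by animal, with the replicate number entered as a block, it was lower (log2 fold change -1.89 ± 0.20, edgeR adjusted p = 0.000754). C3, the central component, stood at 426, 1460, 1556 and 1959 CPM untreated and at 73.1, 533, 480.4 and 607 CPM at 20 Gy. The untreated replicate 1 library lay within the irradiated range, and the other 3 untreated libraries lay above it. The unpaired value was log2 fold change -1.63 ± 0.66, edgeR adjusted p = 0.0998, and the paired one was log2 fold change -1.80 ± 0.18, edgeR adjusted p = 0.00065. Cfb, which supplies the protease of the alternative pathway, stood at 0.545, 2.04, 4.44 and 5.14 CPM untreated and at 0.109, 0.564, 1.1 and 1.13 CPM at 20 Gy. Every animal was again lower after irradiation and replicate 1 was lowest in both groups. Its unpaired value was log2 fold change -2.02 ± 0.80, edgeR adjusted p = 0.0951, and its paired value was log2 fold change -2.02 ± 0.19, edgeR adjusted p = 0.000562.

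Serping1 stood at 57.7, 333, 821 and 752 CPM untreated and 7.69, 99.2, 193 and 225 CPM at 20 Gy. Replicate 1 was far below the other 3 animals in both groups. C1 inhibitor mRNA did not pass unpaired (log2 fold change -1.87 ± 1.01, edgeR adjusted p = 0.203) and was lower with the block (log2 fold change -2.05 ± 0.19, edgeR adjusted p = 0.000539). Cd55 stood at 9.16, 54.5, 61.9 and 50.6 CPM untreated and 10.7, 43.1, 108.1 and 111 CPM at 20 Gy, higher in 3 of 4 animals (log2 fold change 0.67 ± 0.75, edgeR adjusted p = 0.544, paired edgeR adjusted p = 0.11). Cd59a ranged over 6.81 to 18.6 CPM untreated and 5.51 to 14.5 CPM at 20 Gy (log2 fold change -0.26 ± 0.46, edgeR adjusted p = 0.702, paired edgeR adjusted p = 0.0569). With the block, 6 of 8 members were lower and 0 higher, where 24.3% of genes were lower. With the block and without replicate 1, a setting chosen after seeing the data, 7 members were lower, Cd59a being the added one, where 52.1% of genes were called in either direction.

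At 10 Gy the same pair of C1 proteases was lower, and 10 Gy and 20 Gy were not distinguished. C1ra stood at 46.6, 93.4, 87.3 and 117 CPM (log2 fold change -1.91 ± 0.35, edgeR adjusted p = 0.00911) and C1s1 at 104, 223, 209 and 255 CPM (log2 fold change -1.67 ± 0.31, edgeR adjusted p = 0.00936). Neither overlapped the untreated libraries. The count in either direction at this dose was 6 without replicate 1 (35.7% of genes), 0 without replicate 2 (7.31% of genes) and 0 without replicate 3 (1.89% of genes). The 2 members lower compare with 10.6% of all genes, and the 2 that did not overlap with 15%. C3 stood at 65.6, 600.2, 449.8 and 522 CPM, C4b at 8.91, 71.3, 91.9 and 125 CPM and Serping1 at 8.88, 116, 176 and 218 CPM at 10 Gy, each lower than untreated in 4 of 4 animals. Cfb stood at 0.101, 0.677, 0.654 and 0.756 CPM and did not pass unpaired (log2 fold change -2.42 ± 0.75, edgeR adjusted p = 0.0542). With the block 6 members were lower (19.7% of genes), Cfb among them (log2 fold change -2.35 ± 0.28, edgeR adjusted p = 0.000752). Both doses share the untreated cultures, so their values are given side by side only. Between 20 Gy and 10 Gy, edgeR called 0 of 8 members (0% of genes), 0 had an unadjusted p under 0.05 (1.94% of genes) and DESeq2 called 0 (0%), and the block called 0 (0.297%). The log2 differences ranged from -0.14 for C1ra to 0.40 for Cfb.

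Marker genes of cell types moved with the 12 d result. Of the 7 listed fibroblast genes, 7 averaged at least 1 CPM in the untreated and irradiated C56BL6 groups and 6 in the passaged group. They summed to 25310 to 46530 CPM in untreated C56BL6 cultures, 8505 to 10730 CPM at 10 Gy, 7651 to 11490 CPM at 20 Gy and 12420 to 21560 CPM in passaged cultures. The 3 adipocyte genes summed to 4.63, 14.7, 20.8 and 9.68 CPM in the untreated replicates and to at most 1.93 CPM in any other C56BL6 group at 12 d, with Adipoq at 3.27 to 14.6 CPM in the untreated libraries and at most 1.04 CPM elsewhere. The listed keratinocyte genes were high in replicate 1 of every group, at 833.6 CPM untreated and 244.1 CPM at 20 Gy. The 5 endothelial genes summed to 18.9, 6.07, 6.96 and 8.3 CPM untreated and 29.8, 7.38, 8.17 and 8.1 CPM at 20 Gy, with Pecam1 and Cdh5 at 0.0681, 0.105, 0.158 and 0.125 CPM and 1.77, 1.41, 1.02 and 1.25 CPM. In passaged cultures the endothelial sum was 3.71 to 5.61 CPM, below every untreated library. Of the 8 macrophage genes 3 averaged at least 1 CPM, and all 8 summed to 12.2, 34.5, 25.3 and 24.9 CPM untreated, 26.4, 31, 37.6 and 33 CPM at 20 Gy and 9.77, 11.3, 26.2 and 26.6 CPM passaged. Their defining genes Adgre1, Ptprc and Tyrobp were all at 0 in the untreated libraries and summed to 0.191, 0.0769, 0.027 and 0.144 CPM at 20 Gy, Tyrobp being at 0 in each group. The 3 pericyte genes summed to 17.2, 42.9, 11.3 and 16 CPM untreated, 22.9, 94.3, 32.6 and 45.4 CPM at 20 Gy and 13.5, 144, 61.3 and 95.7 CPM passaged, higher than untreated in 4 of 4 animals at 20 Gy and in 3 of 4 passaged. The 4 melanocyte genes summed to 3.2 to 3.6 CPM untreated, above 1.7 to 2.86 CPM at 20 Gy and 0.497 to 1.16 CPM passaged. The part of these markers in the complement values was not tested. In bulk libraries, fewer cells of a type and less RNA per cell cannot be told apart.

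Of the 7 members other than Cfb, 5 were lower in passaged than in unpassaged untreated C56BL6 cultures at 12 d, neither of them irradiated. C3 fell 56.4-fold, C1ra 19.7-fold and C1s1 19.6-fold, and C4b and Serping1 also fell. These 5 compare with 25.5% of all genes lower, and the same 5 did not overlap, where 23.5% of genes did not. Cfb passed the filter on low counts through the untreated libraries alone, so it is left out of these counts and described by its reads. C1ra stood at 10.7, 14.6, 22.6 and 19.6 CPM and C1s1 at 23.6, 28.2, 43.5 and 36.9 CPM in passaged replicates 1 to 4. Both lay below every untreated and every irradiated library of their population at 12 d (log2 fold change -4.30 ± 0.37, edgeR adjusted p = 0.000202, and for C1s1 log2 fold change -4.29 ± 0.29, edgeR adjusted p = 0.000145). C4b stood at 0.266, 8.62, 15.9 and 15 CPM (log2 fold change -4.68 ± 1.08, edgeR adjusted p = 0.00822) and C3 at 2.71, 24.4, 38 and 30.8 CPM (log2 fold change -5.82 ± 0.87, edgeR adjusted p = 0.00127). Replicate 1 was the lowest of both, as it was in the untreated group. Serping1 stood at 0.914, 14.7, 26.7 and 21.9 CPM, below every untreated library (log2 fold change -4.94 ± 1.12, edgeR adjusted p = 0.00738). Cfb was nearly absent: it held 0, 0, 1 and 1 counts in the 4 passaged libraries and 379 counts in all in the untreated ones, a ratio of 195 with an exact 95% counting interval of 53.6 to 1616. Cd55 at 2.51, 8.77, 32.4 and 32.1 CPM and Cd59a at 4.61 to 16.9 CPM did not pass (log2 fold change -1.22 ± 0.82, edgeR adjusted p = 0.245, and for Cd59a log2 fold change -0.31 ± 0.52, edgeR adjusted p = 0.64), and both were lower with the block, as were the other 5 (30.8% of genes). Without replicate 2, C4b missed the threshold and 4 of the 7 were lower (32.8% of genes in either direction).

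Against passaged rather than unpassaged controls, the direction of the irradiated C56BL6 cultures was the opposite: C1ra, C1s1 and C3 were higher at 20 Gy. These were 3 of the 7 members that passed the filter on low counts, where 20.3% of all genes were higher and 19.2% lay fully above. The C1 proteases were 4.65-fold higher (log2 fold change 2.22 ± 0.37, edgeR adjusted p = 0.00216) and 6.05-fold higher (log2 fold change 2.60 ± 0.33, edgeR adjusted p = 0.000596), and C3 was 17.9-fold higher (log2 fold change 4.16 ± 0.88, edgeR adjusted p = 0.00624). All 4 irradiated libraries of each lay above all 4 passaged ones. Serping1 (log2 fold change 3.05 ± 1.08, edgeR adjusted p = 0.0516), C4b (log2 fold change 2.97 ± 1.08, edgeR adjusted p = 0.056) and Cd55 (log2 fold change 1.86 ± 0.89, edgeR adjusted p = 0.127) were higher in 4 of 4 animals and passed with the block, for 6 of 7 (28.3% of genes). Cfb did not pass the filter, holding 114 counts at 20 Gy and 2 in passaged cultures. Its ratio was 46.1, with an exact 95% counting interval of 12.5 to 386. Cd59a gave 0.02 ± 0.52 on the log2 scale. The count in either direction was 6 without the expression filter (19.3% of genes) or with all groups in one fit (41.9%), 5 with DESeq2 (46.2%) and 7 without replicate 1 (48.8% of genes). Apart from DESeq2, these settings let Cfb in, through the 20 Gy or untreated libraries where it is high. Their counts are therefore not out of the 7 above. The 20 Gy cultures take part in both comparisons, and so the values against untreated and against passaged cultures are not independent.

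**Figure D2:**
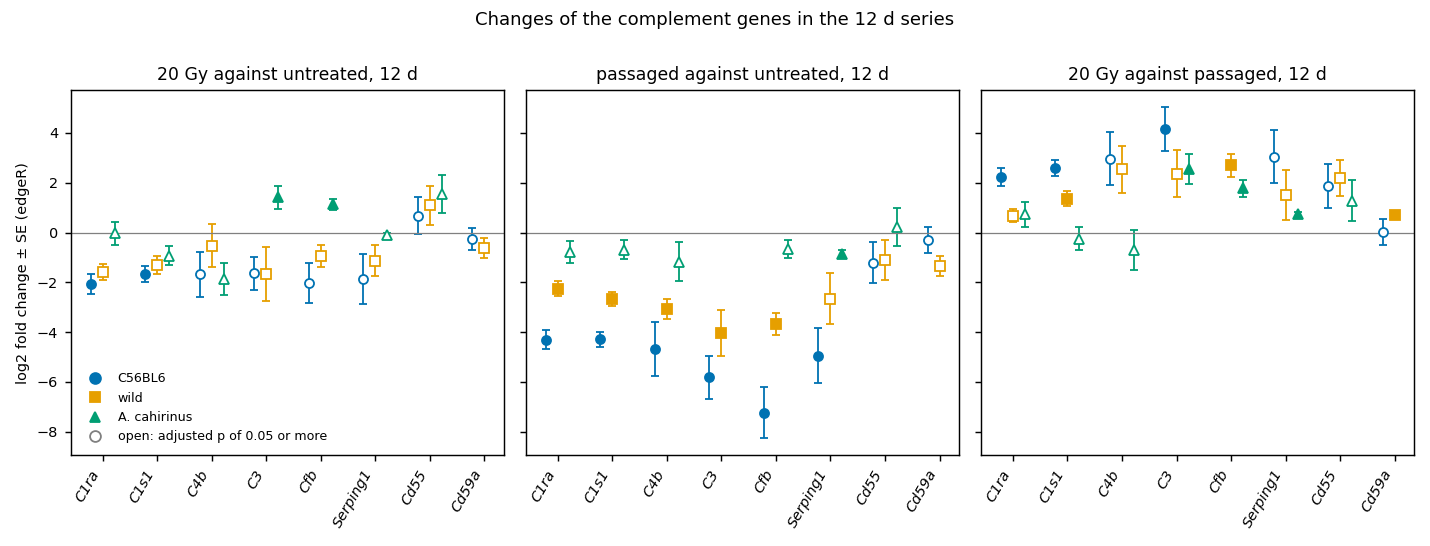
Log2 fold changes ± SE of each member at 12 d (edgeR, unpaired) for the 3 populations, in panels for 20 Gy against untreated, passaged against untreated and 20 Gy against passaged, with filled points where the adjusted p is under 0.05. In C56BL6 mice C3 sits at -1.63 against untreated and at 4.16 against passaged cultures.

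In wild mice at 12 d no member passed the unpaired test at either dose, and with animals paired C1ra, C1s1, C3, Cfb and Serping1 were lower and Cd55 higher at 20 Gy. Unpaired at 20 Gy, edgeR called 0 of 8 members (0.0694% of genes), 2 had an unadjusted p under 0.05 (13.8% of genes) and DESeq2 called 2 (4.6%), or 1 without replicate 1 (1.23%). Without the libraries labelled replicate 1 the unpaired count was also 0 (0% of genes). C1ra stood at 356, 224, 502 and 276 CPM untreated and 87.1, 147, 136 and 76.8 CPM at 20 Gy. The irradiated libraries all lay below the untreated ones, without passing the test (log2 fold change -1.58 ± 0.31, edgeR adjusted p = 0.0889). C1s1 stood at 479, 327, 733 and 381 CPM untreated and 120.1, 289.9, 224 and 135 CPM at 20 Gy, also without overlap (log2 fold change -1.30 ± 0.35, edgeR adjusted p = 0.178). These 2 compare with 5.29% of genes fully below. The median log2 fold change was -1.04 over the members and -0.01 over all genes. C3 stood at 327, 2655, 579 and 252 CPM untreated and 63, 903, 171 and 63.6 CPM at 20 Gy, and replicate 2 was the highest in both groups. C4b stood at 195, 348, 145 and 242 CPM untreated and 47.4, 497, 23.8 and 73.5 CPM at 20 Gy. Here replicate 2 lay higher at 20 Gy and the other 3 lay lower (log2 fold change -0.53 ± 0.87, edgeR adjusted p = 0.855). Serping1 stood at 427, 89.3, 438 and 203 CPM untreated and 116, 58.2, 277 and 68 CPM at 20 Gy, lower in 4 of 4. Cd55 went the other way in all 4, from 12.4, 31.4, 2.53 and 13.1 CPM untreated to 26.6, 55.4, 7.1 and 35.7 CPM at 20 Gy (log2 fold change 1.09 ± 0.77, edgeR adjusted p = 0.602). Cfb ranged over 0.804 to 2.21 CPM untreated and 0.367 to 1.11 CPM at 20 Gy, and Cd59a over 26.6 to 93.4 and 24.3 to 35.9 CPM.

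Pairing by animal changed these calls, and leaving out the libraries whose identity is in doubt changed them again. With the block, C1ra (log2 fold change -1.57 ± 0.23, edgeR adjusted p = 0.00989), C1s1 (log2 fold change -1.33 ± 0.28, edgeR adjusted p = 0.0255), C3 (log2 fold change -1.89 ± 0.16, edgeR adjusted p = 0.00291), Serping1 (log2 fold change -1.16 ± 0.23, edgeR adjusted p = 0.0205) and Cfb (log2 fold change -0.97 ± 0.25, edgeR adjusted p = 0.0453) were lower. Cd55 was higher (log2 fold change 1.22 ± 0.14, edgeR adjusted p = 0.0056). The shares of genes called were 7.8% lower and 7.63% higher. Without the libraries labelled replicate 1, the block left 1 member lower, C3 (-1.75 ± 0.19, edgeR adjusted p = 0.0269), and 1 higher, Cd55 (1.25 ± 0.18, edgeR adjusted p = 0.0404), where 2% of genes were called in either direction. C1ra then stood at -1.43 ± 0.27, edgeR adjusted p = 0.0617. At 10 Gy, where C1ra read 121 ± 14.6 CPM (SD, n = 4) and C1s1 207 ± 62.1 CPM (SD, n = 4), edgeR called 0 of 8 unpaired (0.264% of genes), 2 had an unadjusted p under 0.05 (12.3% of genes) and DESeq2 called 2 (4.17%), or 1 without replicate 1 (0.814%). Unpaired, edgeR called 0 without replicate 1 (0% of genes). The block called 1 higher and 4 lower (5.96% and 6.74% of genes), or 4 in all without replicate 1 (2.52%). The listed adipocyte genes summed to 6.73, 0.089, 0.171 and 9.36 CPM in the untreated wild replicates 1 to 4 and 1.84, 0.337, 0.149 and 1.95 CPM at 20 Gy, the fibroblast genes to 10930 to 83130 CPM and 8098 to 26010 CPM, and the pericyte genes to 18, 52.5, 18.9 and 33.4 CPM and 21.3, 50.1, 55.9 and 41.5 CPM. Their part in these values was not tested.

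Passaged wild cultures held less C1ra, C1s1, C4b and C3 than unpassaged ones, 4 of the 7 members other than Cfb (5.21% of all genes were lower). C1ra stood at 73.1, 50.7, 93.5 and 68.8 CPM (log2 fold change -2.25 ± 0.29, edgeR adjusted p = 0.0115) and C1s1 at 76, 51.8, 93 and 82.7 CPM (log2 fold change -2.67 ± 0.30, edgeR adjusted p = 0.0101) in passaged cultures. C3 stood at 27.6, 119, 53.9 and 36.7 CPM (log2 fold change -4.03 ± 0.92, edgeR adjusted p = 0.0341) and C4b at 18.3, 48.4, 27 and 18.3 CPM (log2 fold change -3.06 ± 0.41, edgeR adjusted p = 0.0118). None of the 4 overlapped the untreated libraries, and neither did Cd59a at 17.2, 23.8, 19.3 and 15 CPM (log2 fold change -1.34 ± 0.41, edgeR adjusted p = 0.0724), 5 in all where 9.54% of genes lay fully below. Serping1 stood at 21.4, 6.05, 146 and 12.4 CPM, with replicate 3 far above the others (log2 fold change -2.65 ± 1.04, edgeR adjusted p = 0.138). Cd55 stood at 5.24, 14.5, 1.95 and 6.08 CPM. Cfb, which passed the filter through the untreated libraries alone, held 48, 40, 43 and 23 reads untreated and 4, 3, 2 and 4 reads passaged and is left out of these counts. The pericyte genes summed to 7.6, 17.8, 21.1 and 18.4 CPM in passaged cultures and the fibroblast genes to 25080 to 33940 CPM. The block called all 7 lower (16.8% of genes), and 6 without replicate 1 (13.7% of genes in either direction), C1ra at -2.20 ± 0.15, edgeR adjusted p = 0.0143 and C3 at -3.57 ± 0.39, edgeR adjusted p = 0.0199. Unpaired and with Cfb counted in, edgeR called 0 without replicate 1 (0% of genes) and 0 without replicate 4 (0% of genes).

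At 20 Gy against passaged wild cultures, Cd59a (log2 fold change 0.70 ± 0.17, edgeR adjusted p = 0.0403) and C1s1 (log2 fold change 1.36 ± 0.31, edgeR adjusted p = 0.03) were higher. These 2 of the 7 members other than Cfb compare with 4.39% of all genes higher, and the 2 that did not overlap with 7.89%. Cfb held 25, 33, 20 and 13 reads at 20 Gy and, again, passed the filter through that group alone. C1ra (log2 fold change 0.67 ± 0.26, edgeR adjusted p = 0.143) and C3 (log2 fold change 2.36 ± 0.95, edgeR adjusted p = 0.16) were higher in 4 of 4 animals and passed with the block, which called all 7 higher (19.7% of genes). With the block and without replicate 1, 5 members were higher (28.2% of genes in either direction). With Cfb counted in, the unpaired count was 0 without replicate 1 (0% of genes), 0 without replicate 2 (1.71% of genes) and 0 without replicate 4 (0% of genes). DESeq2 called 5 (18.2%), or 4 without replicate 1 (9.9%).

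At 24 h no mouse member passed the unpaired test at either dose, and with animals paired C1ra, C4b, C3 and Serping1 of C56BL6 mice were lower at both. In C56BL6 mice edgeR called 0 of 7 members at 10 Gy (0.007% of genes called) and 0 of 7 at 20 Gy (0.0895%). At 10 Gy 1 had an unadjusted p under 0.05 (7.82% of genes) and DESeq2 called 1 (1.04%). At 20 Gy 1 had an unadjusted p under 0.05 (9.84% of genes) and DESeq2 called 1 (1.85%). The member with the unadjusted p under 0.05 was C1ra at both doses. C1ra stood at 12.2, 9.03, 13.8 and 12.8 CPM untreated, 8.53, 7.14, 7.78 and 5.92 CPM at 10 Gy and 7.96, 6.67, 8.27 and 6.57 CPM at 20 Gy. Both irradiated groups lay fully below the untreated one (log2 fold change -0.69 ± 0.16, edgeR adjusted p = 0.29, then log2 fold change -0.69 ± 0.15, edgeR adjusted p = 0.168). It was the single member that did not overlap, where 2.49% and 3.19% of genes lay fully below. C4b stood at 0.0688, 3.32, 5.37 and 7.32 CPM untreated and 0.102, 1.04, 2.23 and 1.97 CPM at 20 Gy. Replicate 1 was close to the floor in both groups. Serping1 stood at 0.929, 11.6, 16 and 19.2 CPM untreated and 0.851, 5.95, 6.9 and 6.12 CPM at 20 Gy, and C3 at 3.03, 18.2, 19.5 and 19.8 CPM and 2.96, 13.5, 10.2 and 8.79 CPM. For both, replicate 1 was again far below the other animals, and replicates 2 to 4 were lower at 20 Gy. Replicate 1 hardly differed, with 88 reads untreated and 87 at 20 Gy for C3 and 27 and 25 for Serping1.

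With the block, C1ra, C4b, C3 and Serping1 were lower at 10 Gy (6.12% of genes lower), and these with C1s1 at 20 Gy (9.45%). The 20 Gy values were -0.69 ± 0.10 for C1ra, -0.33 ± 0.10 for C1s1, -1.57 ± 0.19 for C4b, -0.73 ± 0.13 for C3 and -1.21 ± 0.14 for Serping1 on the log2 scale. Without replicate 1 the block called 5 members at each dose (23.8% and 21.8% of genes in either direction). Cd55 ranged over 2.92 to 32.6 CPM untreated and 5.58 to 27.2 CPM at 20 Gy, Cd59a over 5.35 to 20.4 and 5.62 to 21 CPM, and Cfb held at most 2 counts in any library of these groups. In wild mice edgeR called 0 of 7 members at either dose (0% and 0% of genes called). At 10 Gy 0 had an unadjusted p under 0.05 (4.18% of genes) and DESeq2 called 0 (0.638%). For the higher dose, 0 had an unadjusted p under 0.05 (5.93% of genes) and DESeq2 called 0 (0.698%). C1ra stood there at 9.45, 54.9, 31.5 and 58.6 CPM untreated and 6.88, 35.3, 27.8 and 39.7 CPM at 20 Gy, and C3 at 3.42, 119.8, 9.39 and 19.4 CPM and 2.04, 63.4, 4.49 and 9.01 CPM. Replicate 2 was the highest for C3 in each group, and replicate 1 the lowest. With the block at 20 Gy, C1ra (log2 fold change -0.45 ± 0.10, edgeR adjusted p = 0.0122), C3 (log2 fold change -0.96 ± 0.10, edgeR adjusted p = 0.000412) and Serping1 (log2 fold change -0.53 ± 0.14, edgeR adjusted p = 0.0272) were lower. The regulators Cd55 (log2 fold change 1.03 ± 0.26, edgeR adjusted p = 0.0245) and Cd59a (log2 fold change 0.38 ± 0.11, edgeR adjusted p = 0.0389) were higher. The shares of genes were 5.2% lower and 7.36% higher. At 10 Gy the block called 0 members and 0% of genes. Cd59a in the shallow replicate 1 library of that group stood at 78.4 CPM, the highest of its group, whose 4 libraries read 78.4, 36.9, 21.1 and 20.8 CPM.

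**Figure D3:**
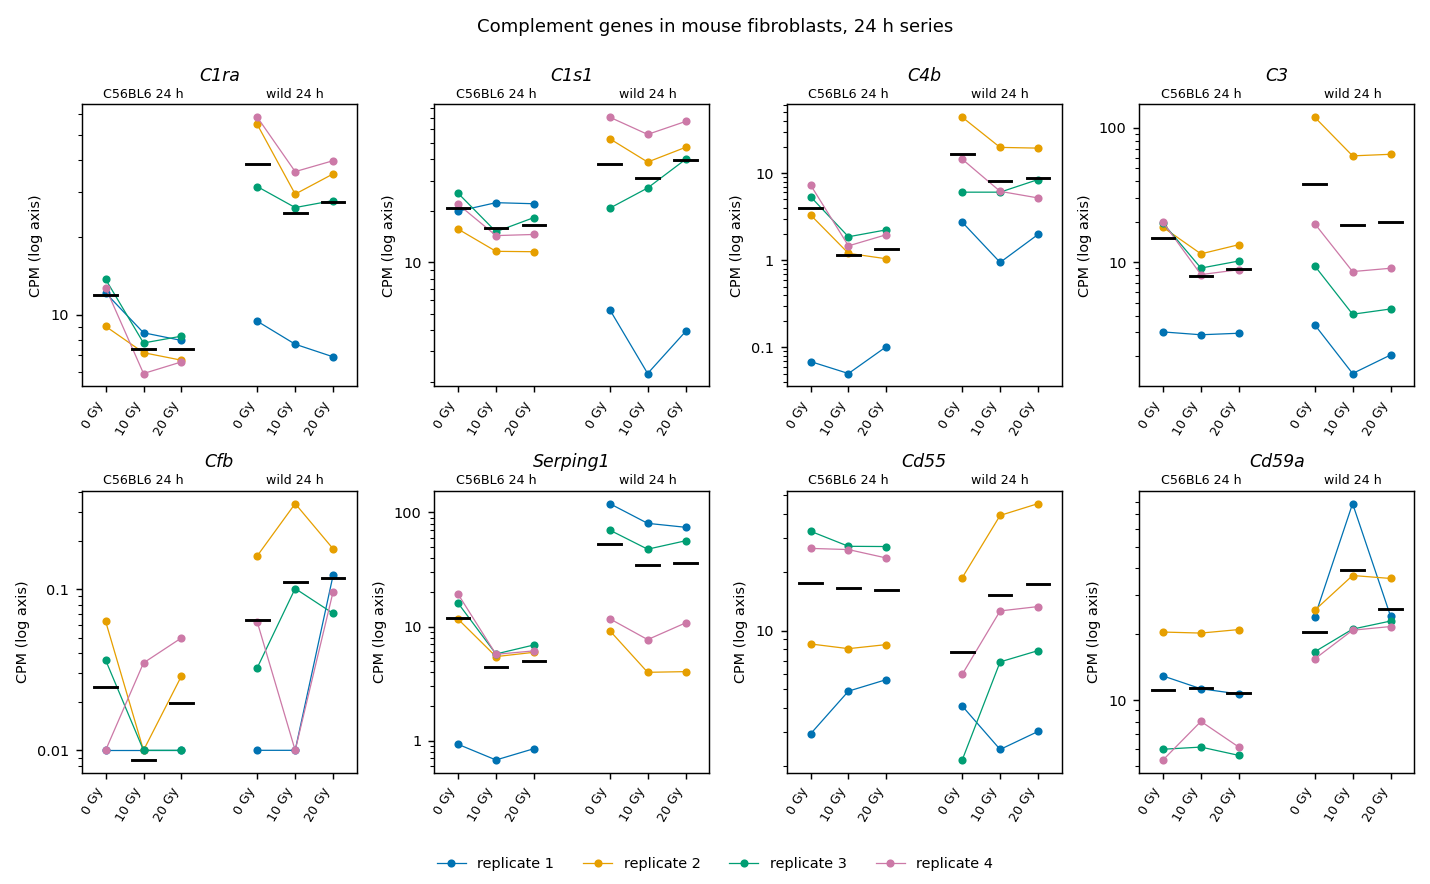
Levels of the 8 complement genes in mouse fibroblasts at 24 h, in CPM on a log axis, for C56BL6 and wild mice in untreated, 10 Gy and 20 Gy cultures (4 libraries each, coloured by replicate number, with lines joining a number and black bars at group means; 0 is drawn at 0.01). C56BL6 C1ra sits at 9.03 to 13.8 CPM untreated, above the 20 Gy libraries at 6.57 to 8.27 CPM.

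In *A. cahirinus* fibroblasts at 12 d, Cfb was called higher in the 20 Gy group against the untreated one, from a low level, and no member was lower without pairing. It was 1 of 6 members compared, C3 and Cd59a aside, where 13.8% of all genes were higher and 13.3% did not overlap. C3 stood at 0.101, 0.356, 0.137 and 0.431 CPM untreated and 0.438, 0.729, 0.723 and 0.894 CPM at 20 Gy, resting on 3, 12, 4 and 15 reads and 14, 23, 27 and 32 reads. C3 reached the filter's minimum in 4 libraries at 20 Gy and in 2 untreated ones, and 4 were needed. Its place in the test thus came from the group where it was high, and it is left out of the counts. It gave log2 fold change 1.41 ± 0.47, edgeR adjusted p = 0.0492, and without the expression filter an edgeR adjusted p of 0.0627. Cfb stood at 0.743, 0.949, 0.824 and 0.604 CPM untreated and 1.47, 1.84, 1.74 and 1.79 CPM at 20 Gy, from 22, 32, 24 and 21 and 47, 58, 65 and 64 reads. All irradiated libraries lay above the untreated ones (log2 fold change 1.13 ± 0.21, edgeR adjusted p = 0.0053). Leaving out 1 animal gave adjusted p-values of 0.0455 to 0.211 for C3 and 0.00496 to 0.0529 for Cfb. With C3 counted in, the count in either direction was 1 without replicate 1 (12% of genes), 5 without replicate 2 (49.3% of genes), 0 without replicate 3 (12.3% of genes) and 1 without replicate 4 (17.5% of genes), and 1 without the filter (25%). C1s1 stood at 5.5, 8.3, 4.19 and 5.35 CPM untreated and 2.28, 5.93, 1.85 and 2.23 CPM at 20 Gy, and C4b at 2.06, 5.37, 1.17 and 4.14 CPM and 0.344, 2, 0.643 and 0.531 CPM. Both were lower in 4 of 4 animals (log2 fold change -0.93 ± 0.39, edgeR adjusted p = 0.101, and for C4b log2 fold change -1.87 ± 0.64, edgeR adjusted p = 0.0554). Cd55 stood at 4.46, 16.4, 4.29 and 3.02 CPM untreated and 14.6, 48.3, 14.6 and 4.53 CPM at 20 Gy. It was higher in every animal, with replicate 2 highest in both groups (log2 fold change 1.53 ± 0.76, edgeR adjusted p = 0.156). With the block Cfb and Cd55 were higher and C1s1 and C4b lower (23.5% and 25.8% of genes).

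Serping1, the abundant member in this species, stood at 66.6, 95.7, 74.2 and 85.6 CPM untreated and 74.2, 81.1, 64.1 and 76.9 CPM at 20 Gy, with overlapping groups (log2 fold change -0.12 ± 0.12, edgeR adjusted p = 0.506). C1ra ranged over 0.748 to 1.9 CPM untreated and 0.616 to 2.25 CPM at 20 Gy (log2 fold change -0.03 ± 0.46, edgeR adjusted p = 0.968). At 10 Gy and 12 d, edgeR called 0 of 6 members (2.87% of genes called) and 2 had an unadjusted p under 0.05 (21.8% of genes) and DESeq2 called 0 (11.6%). The block (13.4% of genes lower) called C1s1 (-0.92 ± 0.19) and C4b (-1.61 ± 0.26) lower. Between 20 Gy and 10 Gy, 0 of 7 were called (0.457% of genes), 1 had an unadjusted p under 0.05 (14.1% of genes) and DESeq2 called 1 (5.2%). These 7 take in C3, which reached the filter's minimum in 4 libraries at 20 Gy and 1 at 10 Gy. It thus entered through the group where it is high. C3 read 0.204, 0.208, 0.164 and 0.299 CPM at 10 Gy, and the block called 2 of the 7 higher, Cd55 among them (8.26%).

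Passaged *A. cahirinus* cultures held less Serping1 than unpassaged ones, at 44.8, 53, 37.2 and 45.1 CPM. All 4 lay below the untreated libraries (log2 fold change -0.86 ± 0.14, edgeR adjusted p = 0.00443). This was 1 of 6 members, where 13.6% of genes were lower and 13.5% lay fully below. C1ra, C1s1 and C4b were also lower with the block (26.3% of genes), at -0.79 ± 0.28, -0.76 ± 0.17 and -1.41 ± 0.34 on the log2 scale. Fibroblast genes summed to 17710 to 23950 CPM in passaged and 28140 to 32720 CPM in untreated cultures, pericyte genes to 271 to 362 CPM and 156 to 226 CPM, and macrophage genes to 5 to 6.06 CPM and 2.23 to 2.96 CPM, none of them overlapping. The defining macrophage genes Adgre1, Ptprc and Tyrobp went the other way, close to the floor. They summed to 0.115, 0.145, 0 and 0.105 CPM passaged and 0.338, 0.148, 0.309 and 0.201 CPM untreated. The part of these markers in the Serping1 values was not tested. At 20 Gy against passaged cultures, Serping1 (log2 fold change 0.73 ± 0.11, edgeR adjusted p = 0.00159) and Cfb (log2 fold change 1.78 ± 0.34, edgeR adjusted p = 0.00406) were higher. These 2 of 6 compare with 19.5% of genes higher and 16.3% fully above. C3 held 0, 5, 2 and 6 reads passaged, passed the filter through the 20 Gy group alone and is left out of the count. The block added Cd55 (log2 fold change 1.32 ± 0.12, edgeR adjusted p = 0.000164, 28% of genes higher).

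At 24 h edgeR called 0 of 6 *A. cahirinus* members at each dose, where 3.73% and 3.58% of genes were called. At 10 Gy 1 had an unadjusted p under 0.05 (16.3% of genes) and DESeq2 called 1 (7.72%). For the higher dose, 1 had an unadjusted p under 0.05 (17.4% of genes) and DESeq2 called 1 (8.42%). The member with the unadjusted p under 0.05 was Serping1, at 36.9, 33.9, 34.6 and 37.2 CPM untreated, 43.9, 43.5, 40.2 and 43.8 CPM at 10 Gy and 42.6, 40.8, 46.6 and 49.7 CPM at 20 Gy. Both irradiated groups lay fully above the untreated one (log2 fold change 0.27 ± 0.06, edgeR adjusted p = 0.0525, then log2 fold change 0.34 ± 0.08, edgeR adjusted p = 0.0588), where 4.5% and 5.26% of genes did. The block called it higher at both doses (edgeR adjusted p = 0.0041 and 0.00493, with 15.2% and 13.3% of genes higher). The other members gave log2 fold changes at 20 Gy between -0.02 for C4b and 0.43 for Cfb. Listed fibroblast genes summed to 28140 to 32720 CPM untreated and 17930 to 29430 CPM at 20 Gy at 12 d, adipocyte genes to 0 to 0.103 CPM and 0.107 to 0.335 CPM, and keratinocyte genes to at most 4.63 CPM. The adipocyte sums did not overlap, nor did those of 3 further lists. Macrophage genes summed to 2.23 to 2.96 CPM untreated and 3.83 to 6.62 CPM at 20 Gy, pericyte genes to 156 to 226 CPM and 239 to 298 CPM, and endothelial genes to 0.584 to 1.93 CPM and 2.81 to 4.91 CPM. The defining macrophage genes Adgre1, Ptprc and Tyrobp overlapped, at 0.338, 0.148, 0.309 and 0.201 CPM untreated and 0.313, 0.38, 0.268 and 0.307 CPM at 20 Gy. The endothelial genes Pecam1 and Cdh5 alone summed to 0.641, 0.741, 0.309 and 0.46 CPM untreated and 3.75, 2.15, 2.49 and 3.1 CPM at 20 Gy. Their part in the complement values was not tested.

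**Figure D4:**
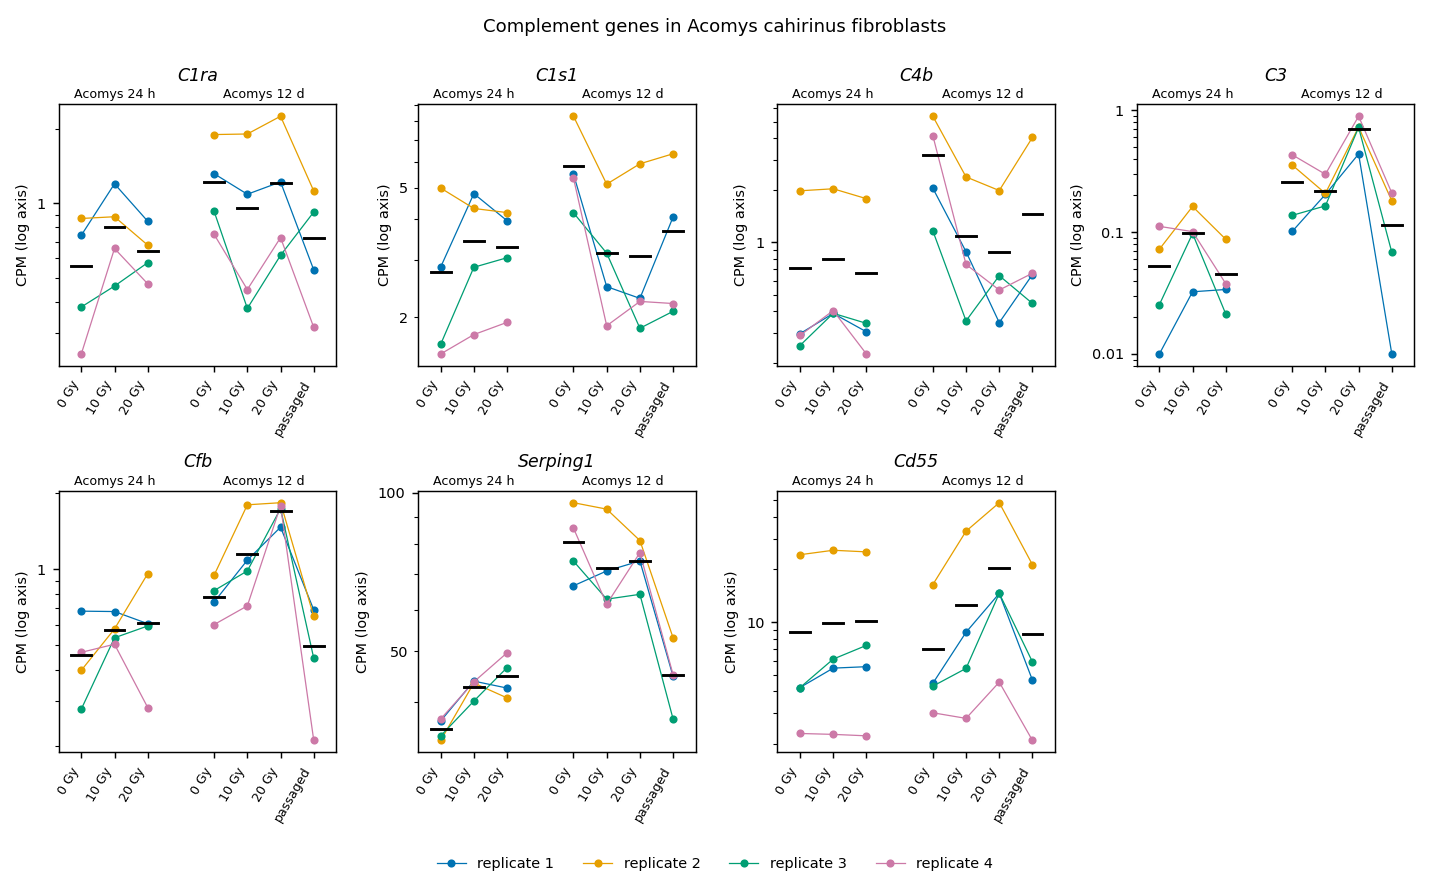
Levels of 7 complement genes in *A. cahirinus* fibroblasts, in CPM on a log axis, at 24 h (untreated, 10 Gy, 20 Gy) and 12 d (the same and passaged), with 4 libraries each coloured by replicate number, lines joining a number and black bars at group means; 0 is drawn at 0.01, and Cd59a is left out at 2 counts or fewer per library. At 12 d, Cfb sits at 1.47 to 1.84 CPM at 20 Gy, above 0.604 to 0.949 CPM untreated.

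The change itself was compared between populations as an interaction, over the 18109 symbols found once in each table where *A. cahirinus* was involved. At 12 d and 20 Gy, the changes of C1ra, C3 and Cfb were higher in *A. cahirinus* than in C56BL6 mice. The differences in log2 fold change were 2.04 ± 0.65, edgeR adjusted p = 0.0425 for C1ra, 3.04 ± 0.94, edgeR adjusted p = 0.0378 for C3 and 3.17 ± 0.88, edgeR adjusted p = 0.0225 for Cfb. These 3 of 8 compare with 8.37% of symbols, and the block called 5, adding C1s1 and Serping1 (17.9%). The 8 take in C3, left out of the count within *A. cahirinus* for its few reads (3, 12, 4 and 15 untreated). They also take in Cd59a, which entered through the mouse groups and held at most 2 counts in any *A. cahirinus* library. The same holds against wild mice. The count in either direction was 0 without replicate 2 (17.2% of genes), 0 without replicate 3 (4.3% of genes) and 0 without replicate 4 (6.44% of genes). Against wild mice only Cfb passed, at 2.11 ± 0.50, edgeR adjusted p = 0.0388 (1.17% of symbols), and the block called 4, adding C1ra, C3 and Serping1 (10.3%), or 2 without replicate 1 (7.56%). DESeq2 called 1 (8.29%), or 0 without replicate 1 (1.97%). The count was 0 without the expression filter (1.84%), and it was 0 without replicate 1 (0% of genes), 0 without replicate 3 (1.15% of genes) and 0 without replicate 4 (0.036% of genes).

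The change with passage also differed. It was higher in *A. cahirinus* than in C56BL6 mice for C1ra (3.52 ± 0.59, edgeR adjusted p = 0.000928), C1s1 (3.59 ± 0.49, edgeR adjusted p = 0.000246), Serping1 (4.08 ± 1.06, edgeR adjusted p = 0.0117) and Cfb (edgeR adjusted p = 0.000763), the last resting on 2 reads in the passaged C56BL6 group. These 4 compare with 13.5% of symbols, and the block called 7 (21.7%). Unlike the passage counts within mouse populations, the counts of this paragraph take in Cfb. With *A. cahirinus* they also take in its C3 and Cd59a, with the limits given above. Against wild mice it was higher for C1s1 (1.97 ± 0.50, edgeR adjusted p = 0.0457) and Cfb (3.01 ± 0.59, edgeR adjusted p = 0.0161), the latter on the few passaged wild reads given above, where 2.01% of symbols were higher. The block called 6 (11.4%), or 3 without replicate 1 (8.49%). The unpaired count was 0 without replicate 1 (0.0295% of genes) and 0 without replicate 4 (0.0812% of genes), and DESeq2 called 3 (9.33%), or 0 without replicate 1 (2.23%). Between wild and C56BL6 mice, edgeR called 0 members for 20 Gy at 12 d (0% of genes called) and for passage (0.0131%). For 20 Gy 0 had an unadjusted p under 0.05 (2.22% of genes) and DESeq2 called 0 (0.0503%), or 0 without replicate 1 (0.113%), and for passage 3 had an unadjusted p under 0.05 (8.59% of genes) and DESeq2 called 2 (0.862%), or 2 without replicate 1 (1.32%). The block called 0 for 20 Gy (0.101%) and 4 for passage (2.49%), with C1ra at 2.06 ± 0.13, C1s1 at 1.66 ± 0.17, C3 at 2.53 ± 0.45 and Cfb at 3.56 ± 0.66, all less negative in wild mice. That Cfb value again rests on 2 reads in the passaged C56BL6 group. Without replicate 1 the block called 0 for 20 Gy (0.169%) and 2 for passage (2.22%). The unpaired counts were 0 without replicate 1 (0% of genes) for 20 Gy and 0 without replicate 1 (0% of genes) for passage. At 24 h edgeR called 0 members in the interactions of *A. cahirinus* with C56BL6 (2.11% of symbols) and with wild mice (0%), and the block called 3 (8.92%) and 1 (3.08%). With C56BL6 1 had an unadjusted p under 0.05 (10.8% of genes) and DESeq2 called 0 (3.81%), and with wild mice 0 had an unadjusted p under 0.05 (5.15% of genes) and DESeq2 called 0 (0.735%).

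Untreated wild and C56BL6 cultures did not differ in any member past the threshold at 12 d (2.93% of genes called by edgeR) or at 24 h (5.7%). At 12 d 1 had an unadjusted p under 0.05 (15.3% of genes) and DESeq2 called 1 (7.59%), or 1 without replicate 1 (9.27%), and at 24 h 1 had an unadjusted p under 0.05 (22.2% of genes) and DESeq2 called 1 (12.3%). The 12 d count was 0 without replicate 1 (2.57% of genes). At 12 d Cd59a lay fully above in wild mice, at 33.2, 93.4, 35.9 and 26.6 CPM against 15.5, 18.6, 6.81 and 7.36 CPM (log2 fold change 1.97 ± 0.51, edgeR adjusted p = 0.0974), where 5.27% of genes did. The near copies C1s2, C1rb and C4a, named after their values were seen, were higher in wild mice. C1s2 stood at 65.7, 46.5, 109.7 and 55.8 CPM in wild and 0.885, 1.69, 3.09 and 3.51 CPM in C56BL6 untreated cultures at 12 d (log2 fold change 4.90 ± 0.50, edgeR adjusted p = 0.00166). C1rb stood at 42.8, 24.1, 60.2 and 29.1 CPM and 0.273, 1.16, 2.55 and 2.66 CPM (log2 fold change 4.53 ± 0.67, edgeR adjusted p = 0.01), and C4a at 5.34, 10.5, 9.98 and 6.01 CPM and 0.613, 1.44, 0.819 and 1.19 CPM (log2 fold change 2.95 ± 0.37, edgeR adjusted p = 0.00464). For each copy all wild libraries lay above all C56BL6 libraries. The same 3 were higher in wild mice at 24 h. Leaving out 1 replicate number at 12 d gave adjusted p-values of up to 0.0238 for C1s2, 0.0746 for C1rb and 0.0562 for C4a. Sequence shared with C1ra, C1s1 and C4b, given above, limits how far each copy can be told from its neighbour.

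The members also differed in how closely they moved together. Over the 56 mouse libraries, after subtracting the mean of each population and time, C1ra and C1s1 had a Pearson r of 0.95, C4b and C3 0.89, C3 and Cfb 0.82, C1ra and C3 0.81, and C1ra and Serping1 0.52. Cd59a had r between -0.22 and 0.14 with the other members. These libraries share animals and treatments and include the wild 12 d libraries labelled replicate 1, so the values are descriptions. Among 10571 genes, those with the highest r were C1s1 and Gm18840 (0.93) for C1ra, Ms4a4d (0.92) and Pros1 (0.90) for C4b, and Larp6 (0.92) and Apba1 (0.90) for C3. Serping1 was closest to Smim1 (0.93), Cfb to Serpina3m (0.89), Cd55 to Irak3 (0.89) and Pdpn (0.87), and Cd59a to Tnfaip8 and Nrp2 (0.72 each). Gm18840 shares some 75-base stretches with C1ra. In the 28 *A. cahirinus* libraries, r was 0.69 for C1ra with C1s1, 0.85 for C4b with Pros1, 0.83 for Cd55 with Pdpn and 0.22 for C3 with C4b.

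Of 51 other complement genes listed, 46 were in the mouse table and 45 in that of *A. cahirinus*. In C56BL6 mice at 12 d and 20 Gy, 4 of 21 tested were lower and 0 higher against untreated, where 13.6% and 12.9% of all genes were. They were C2, the partner of C4 in the classical enzyme (3.03, 14, 40.4 and 31.8 CPM untreated and 0.818, 2.41, 4.85 and 3.62 CPM at 20 Gy, log2 fold change -2.89 ± 0.80, edgeR adjusted p = 0.0315), Cfd, which cleaves factor B (-4.47 ± 0.54), Vtn, a plasma and matrix protein that restrains the attack complex (-6.17 ± 1.23), and Cr1l, a membrane regulator (-0.55 ± 0.06). Cfd is also a product of adipocytes, whose markers moved with these groups as given above. In passaged cultures 4 of 18 were higher and 10 lower (24.2% and 25.5% of all genes), with C2 at -5.54 ± 0.87 and Clu, a fluid-phase inhibitor of the attack complex, at -3.89 ± 0.42. At 20 Gy against passaged cultures 8 of 19 were higher (20.3% of all genes), among them Clu (3.55 ± 0.31) and C1rl, a C1r-like protease (0.64 ± 0.18). There 2 were lower (21.3% of all genes), among them Masp1 of the lectin pathway at 51.4 ± 2.71 CPM (SD, n = 4) at 20 Gy and 103 ± 15.9 CPM (SD, n = 4) passaged. In wild mice at 20 Gy, edgeR called 0 of 23 and 5 had an unadjusted p under 0.05, while the block called 2 higher and 7 lower (7.63% and 7.8% of all genes). Against passaged wild cultures 2 of 19 were higher (4.39% of all genes), among them C1s2 (1.39 ± 0.35). Passaged wild cultures had 1 of 18 higher and 4 lower than untreated (5.51% and 5.21% of all genes), among them C1s2 (-2.61 ± 0.31) and C2 (-2.73 ± 0.38). These wild counts include the libraries labelled replicate 1. Genes near 0 in 1 of the groups passed the filter through the other, so the counts of other complement genes are descriptions.

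In *A. cahirinus* at 12 d and 20 Gy, 4 of 17 other complement genes were higher and 2 lower against untreated, where 13.8% and 18.1% of all genes were. Cd59b, which encodes the same kind of inhibitor as Cd59a, stood at 9.55, 7.88, 6.9 and 5.64 CPM untreated and 18.1, 12.8, 12.1 and 11.3 CPM at 20 Gy, with all irradiated libraries above (log2 fold change 0.86 ± 0.21, edgeR adjusted p = 0.0144). Cfp, properdin, which stabilises the alternative enzyme, stood at 1.62 ± 0.353 CPM (SD, n = 4) and 4.94 ± 0.668 CPM (SD, n = 4) (log2 fold change 1.61 ± 0.21, edgeR adjusted p = 0.00122). C2 was lower, at 5 ± 0.748 CPM (SD, n = 4) and 1.68 ± 0.384 CPM (SD, n = 4) (log2 fold change -1.57 ± 0.21, edgeR adjusted p = 0.00117). Against passaged cultures 8 of 17 were higher (19.5% of all genes), among them Clu (1.84 ± 0.15), Masp1 (1.17 ± 0.30) and Cd59b (1.12 ± 0.23), and C1qbp was lower (-0.33 ± 0.09, 23% of all genes). Cr1l and Masp1 of C56BL6 mice, Cfp and C2 of *A. cahirinus*, and the genes named for passaged against untreated cultures, were named after their values were seen.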

How the data were processed

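Per the file headers, the authors counted reads per gene with featureCounts 2.0.3 and deposited raw counts and each gene's summed exon length in bp. The mouse table used GRCm39 with Ensembl 108 and the *A. cahirinus* table AcoCah2. Multiply mapped reads and reads over several genes were not counted, and no strand option was set. Trim Galore and HISAT2 are named in the submitters' processing notes, with versions not given in the sources used here. All 84 count columns were assigned, and 0 were unused.

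Counts were tested with edgeR 4.0.16 in R 4.3.3 (quasi-likelihood test, filterByExpr, TMM, Benjamini-Hochberg adjustment over all genes tested, threshold 0.05), on the compared groups alone and without a block, in 35 comparisons: 24 within populations, 2 of untreated populations and 9 interactions. CPM are scaled by TMM over a whole table, and RPKM divide by the deposited exon length. Errors of fold changes are standard errors. The fits were tested on simulated data.

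Within a population a replicate number is 1 animal code, so numbers pair the samples. Deviations from group means correlated between same-numbered libraries, at 0.43 or more in every comparison, and averaged -0.30 to -0.12 between different numbers. Subtracting the mean of 4 libraries itself pushes the values between different numbers below 0, so they add nothing on the pairing. Where pairing changed a call, the count with the block or the members it called are given, with paired values for some of them.

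Alternatives were DESeq2 1.42.0, RLE scaling, no expression filter, a replicate block, all groups in one fit and each replicate number left out. Shares of genes beside counts under these settings, the block with all replicates aside, cover calls in either direction. The block and DESeq2 without replicate 1 were chosen after seeing the data. The members and gene lists were chosen with earlier results of these data known. All 8 members are named throughout. Other complement genes are named when they passed the threshold at 20 Gy and 12 d with a mean of at least 5 CPM, at most 3 in each direction per population, and those named outside this rule are said to be. Intervals and the floor of 3 counts cover counting error only. Cell cultures of 1 animal in different groups are not separate animals.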

Additional observations from a re-analysis of the deposited data

Results flagged for a closer look

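In 28 of 165 sets of 4 libraries, 1 library lay apart from the other 3 by more than Dixon's critical value at 95%, where chance gives about 1 in 20 groups for separate sets. The sets here share the same animals across groups, so that share does not apply to their number. C1s1 of *A. cahirinus* was highest in replicate 2, at 5.93 CPM in the 12 d 20 Gy group (others 1.85 to 2.28 CPM). C3 of C56BL6 mice was lowest in replicate 1, at 3.03 CPM in the 24 h untreated group (others 18.2 to 19.8 CPM). C3 of wild mice was highest in replicate 2, at 812 CPM in the 12 d 10 Gy group (others 68.3 to 157 CPM), 903 CPM in the 12 d 20 Gy group (others 63 to 171 CPM), 2655 CPM in the 12 d untreated group (others 252 to 579 CPM), 61.8 CPM in the 24 h 10 Gy group (others 1.49 to 8.51 CPM), 63.4 CPM in the 24 h 20 Gy group (others 2.04 to 9.01 CPM) and 119.8 CPM in the 24 h untreated group (others 3.42 to 19.4 CPM). C4b of *A. cahirinus* was highest in replicate 2, at 4.05 CPM in the 12 d passaged group (others 0.444 to 0.664 CPM), 2.04 CPM in the 24 h 10 Gy group (others 0.389 to 0.404 CPM), 1.79 CPM in the 24 h 20 Gy group (others 0.227 to 0.341 CPM) and 1.99 CPM in the 24 h untreated group (others 0.254 to 0.297 CPM). C4b of wild mice was highest in replicate 2, at 451 CPM in the 12 d 10 Gy group (others 28.1 to 93.3 CPM) and 497 CPM in the 12 d 20 Gy group (others 23.8 to 73.5 CPM). Cd55 of *A. cahirinus* was highest in replicate 2, at 16.4 CPM in the 12 d untreated group (others 3.02 to 4.46 CPM), 25.8 CPM in the 24 h 10 Gy group (others 2.27 to 6.13 CPM) and 24.3 CPM in the 24 h untreated group (others 2.3 to 4.21 CPM). Cd59a of *A. cahirinus* was highest in replicate 3, at 0.0268 CPM in the 12 d 20 Gy group (others at 0) and 0.0254 CPM in the 24 h untreated group (others at 0). Cd59a of *A. cahirinus* was highest in replicate 1, at 0.0675 CPM in the 12 d untreated group (others at 0). Cd59a of *A. cahirinus* was highest in replicate 4, at 0.0252 CPM in the 24 h 10 Gy group (others at 0). Cd59a of wild mice was highest in replicate 2, at 93.4 CPM in the 12 d untreated group (others 26.6 to 35.9 CPM). Cfb of C56BL6 mice was lowest in replicate 1, at 0.101 CPM in the 12 d 10 Gy group (others 0.654 to 0.756 CPM). Cfb of C56BL6 mice was highest in replicate 4, at 0.0348 CPM in the 24 h 10 Gy group (others at 0). Serping1 of *A. cahirinus* was lowest in replicate 3, at 40.2 CPM in the 24 h 10 Gy group (others 43.5 to 43.9 CPM). Serping1 of C56BL6 mice was lowest in replicate 1, at 0.677 CPM in the 24 h 10 Gy group (others 5.46 to 5.75 CPM) and 0.851 CPM in the 24 h 20 Gy group (others 5.95 to 6.9 CPM). Serping1 of wild mice was highest in replicate 3, at 146 CPM in the 12 d passaged group (others 6.05 to 21.4 CPM). The values of Cd59a in *A. cahirinus* and of Cfb in C56BL6 mice at 24 h rest on 1 or 2 counts, and 1 library with reads among 3 at 0 exceeds the critical value by construction. The wild libraries labelled replicate 1 disagree between 12 d and 24 h and enter the wild sets.

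The change itself differed between populations by an edgeR interaction, given as the difference in log2 fold change ± SE with its adjusted p. For 20 Gy at 12 d, *A. cahirinus* minus C56BL6 was 2.04 ± 0.65 for C1ra (edgeR adjusted p = 0.0425), 3.04 ± 0.94 for C3 (edgeR adjusted p = 0.0378) and 3.17 ± 0.88 for Cfb (edgeR adjusted p = 0.0225). For passage it was 3.52 ± 0.59 for C1ra (edgeR adjusted p = 0.000928), 3.59 ± 0.49 for C1s1 (edgeR adjusted p = 0.000246), 6.56 ± 1.06 for Cfb (edgeR adjusted p = 0.000763) and 4.08 ± 1.06 for Serping1 (edgeR adjusted p = 0.0117). Against wild mice the difference at 20 Gy was 2.11 ± 0.50 for Cfb (edgeR adjusted p = 0.0388), and for passage it was 1.97 ± 0.50 for C1s1 (edgeR adjusted p = 0.0457) and 3.01 ± 0.59 for Cfb (edgeR adjusted p = 0.0161). The C3 value rests on 3, 12, 4 and 15 reads in the untreated *A. cahirinus* libraries. For passage, the Cfb values rest on 2 reads in all in the passaged C56BL6 group and 13 in the passaged wild group.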

How the results depend on the processing

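Counts of members past the threshold moved by more than 1.5 times under some settings, and values of single members that did not pass the threshold changed sign in some. The counts in this section take in Cfb and C3 also where they passed the filter through 1 group alone. With RLE scaling 0 of 35 counts moved. With DESeq2 13 moved, to 1 for C56BL6 24 h 10 Gy against untreated, C56BL6 24 h 20 Gy against untreated, *A. cahirinus* 24 h 10 Gy against untreated, *A. cahirinus* 24 h 20 Gy against untreated, *A. cahirinus* 12 d 20 Gy against 10 Gy, 24 h untreated wild against C56BL6, 12 d untreated wild against C56BL6, then 2 for wild 12 d 10 Gy against untreated, wild 12 d 20 Gy against untreated, 12 d passaged against untreated, wild minus C56BL6, then 4 for C56BL6 12 d 20 Gy against untreated, then 5 for C56BL6 12 d 20 Gy against passaged, wild 12 d 20 Gy against passaged. With all groups in one fit 7 moved, to 1 for wild 12 d 10 Gy against untreated, *A. cahirinus* 24 h 20 Gy against untreated, *A. cahirinus* 12 d 20 Gy against untreated, 24 h untreated wild against C56BL6, 12 d untreated wild against C56BL6, then 2 for wild 12 d 20 Gy against untreated, then 6 for C56BL6 12 d 20 Gy against passaged. With no expression filter 4 moved, to 0 for 12 d 20 Gy against untreated, *A. cahirinus* minus wild, then 1 for *A. cahirinus* 12 d 20 Gy against untreated, 12 d passaged against untreated, *A. cahirinus* minus wild, then 6 for C56BL6 12 d 20 Gy against passaged. Pairing by animal, with the replicate number as a block, moved 23 of 33 counts, to 1 for *A. cahirinus* 24 h 10 Gy against untreated, *A. cahirinus* 24 h 20 Gy against untreated, 24 h 20 Gy against untreated, *A. cahirinus* minus wild, then 2 for *A. cahirinus* 12 d 10 Gy against untreated, *A. cahirinus* 12 d 20 Gy against 10 Gy, then 3 for 24 h 20 Gy against untreated, *A. cahirinus* minus C56BL6, then 4 for C56BL6 24 h 10 Gy against untreated, *A. cahirinus* 12 d passaged against untreated, 12 d 20 Gy against untreated, *A. cahirinus* minus wild, 12 d passaged against untreated, wild minus C56BL6, then 5 for C56BL6 24 h 20 Gy against untreated, wild 24 h 20 Gy against untreated, wild 12 d 10 Gy against untreated, *A. cahirinus* 12 d 20 Gy against untreated, 12 d 20 Gy against untreated, *A. cahirinus* minus C56BL6, then 6 for C56BL6 12 d 10 Gy against untreated, C56BL6 12 d 20 Gy against untreated, C56BL6 12 d 20 Gy against passaged, wild 12 d 20 Gy against untreated, 12 d passaged against untreated, *A. cahirinus* minus wild, then 7 for 12 d passaged against untreated, *A. cahirinus* minus C56BL6, then 8 for wild 12 d passaged against untreated, wild 12 d 20 Gy against passaged. The block without replicate 1 moved 10 counts, to 2 for wild 12 d 20 Gy against untreated, 12 d 20 Gy against untreated, *A. cahirinus* minus wild, 12 d passaged against untreated, wild minus C56BL6, then 4 for wild 12 d 10 Gy against untreated, then 5 for C56BL6 24 h 10 Gy against untreated, C56BL6 24 h 20 Gy against untreated, then 6 for C56BL6 12 d 10 Gy against untreated, wild 12 d 20 Gy against passaged, then 7 for C56BL6 12 d 20 Gy against untreated, C56BL6 12 d 20 Gy against passaged, and DESeq2 without replicate 1 moved 6, to 0 for 12 d 20 Gy against untreated, *A. cahirinus* minus wild, 12 d passaged against untreated, *A. cahirinus* minus wild, then 1 for wild 12 d 10 Gy against untreated, wild 12 d 20 Gy against untreated, 12 d untreated wild against C56BL6, then 2 for 12 d passaged against untreated, wild minus C56BL6. Leaving out each replicate number in turn gave counts of 0 to 1 for 12 d passaged against untreated, *A. cahirinus* minus wild, 24 h 20 Gy against untreated, *A. cahirinus* minus C56BL6, 24 h untreated wild against C56BL6, *A. cahirinus* 12 d 10 Gy against untreated, *A. cahirinus* 12 d 20 Gy against 10 Gy, C56BL6 24 h 20 Gy against untreated, then 0 to 2 for 12 d 20 Gy against untreated, *A. cahirinus* minus wild, C56BL6 24 h 10 Gy against untreated, then 0 to 3 for 12 d 20 Gy against untreated, *A. cahirinus* minus C56BL6, wild 12 d 20 Gy against passaged, then 0 to 5 for *A. cahirinus* 12 d 20 Gy against untreated, wild 12 d passaged against untreated, then 0 to 6 for C56BL6 12 d 10 Gy against untreated, C56BL6 12 d 20 Gy against untreated, then 1 to 3 for *A. cahirinus* 12 d passaged against untreated, then 3 to 7 for C56BL6 12 d 20 Gy against passaged. The cause of these shifts was not tested. Among values of single members the block brought 79 past the threshold and took 0 out of it. With the block log2 values turned to 0.01 for Cd55 in C56BL6 24 h 10 Gy against untreated, -0.01 for C1s1 and -0.06 for C4b and -0.04 for Serping1 in C56BL6 12 d 20 Gy against 10 Gy, -0.07 for C3 in wild 12 d 20 Gy against 10 Gy, 0.02 for C4b in 12 d 20 Gy against untreated, *A. cahirinus* minus C56BL6. With DESeq2 log2 values turned to 0.01 for C1ra in *A. cahirinus* 12 d 20 Gy against untreated, 0.07 for Cd59a in 12 d passaged against untreated, *A. cahirinus* minus wild. With RLE scaling log2 values turned to 0.01 for C1ra in *A. cahirinus* 12 d 20 Gy against untreated. With no filter log2 values turned to -0.01 for C1s1 in C56BL6 12 d 20 Gy against 10 Gy, -0.01 for Cd59a in C56BL6 12 d 20 Gy against passaged. With the block without replicate 1 log2 values turned to 0.05 for Cd59a in C56BL6 24 h 20 Gy against untreated, -0.02 for C4b and -0.02 for Serping1 in C56BL6 12 d 20 Gy against 10 Gy, 0.02 for Serping1 and -0.03 for Cd59a in wild 12 d 20 Gy against 10 Gy, 2.23 for Cd59a in 12 d 20 Gy against untreated, *A. cahirinus* minus wild, 1.24 for Cd59a in 12 d passaged against untreated, *A. cahirinus* minus wild. With DESeq2 without replicate 1 log2 values turned to 0.04 for C4b and 0.03 for Serping1 and -0.02 for Cd59a in wild 12 d 20 Gy against 10 Gy, -0.20 for C1ra in 12 d untreated wild against C56BL6, 1.66 for Cd59a in 12 d 20 Gy against untreated, *A. cahirinus* minus wild, 1.61 for Cd59a in 12 d passaged against untreated, *A. cahirinus* minus wild. Leaving out 1 replicate number gave log2 values that changed sign, at -0.13 to 0.04 for Cd55, -0.06 to 0.12 for Cd59a in C56BL6 24 h 10 Gy against untreated, then -0.11 to 0.04 for Cd59a in C56BL6 24 h 20 Gy against untreated, then -0.03 to 0.05 for C1ra, -0.01 to 0.12 for C1s1, -0.05 to 0.05 for Cd55 in C56BL6 24 h 20 Gy against 10 Gy, then -0.06 to 0.06 for C1s1, -0.17 to 0.17 for C4b, -0.05 to 0.15 for C3, -0.05 to 0.07 for Serping1 in C56BL6 12 d 20 Gy against 10 Gy, then -0.08 to 0.24 for Cd59a in C56BL6 12 d 20 Gy against passaged, then -0.12 to 0.22 for C1s1 in wild 24 h 20 Gy against untreated, then -0.03 to 0.23 for C4b, -0.12 to 0.25 for Serping1, -0.87 to 0.02 for Cd59a in wild 24 h 20 Gy against 10 Gy, then -0.55 to 0.03 for C4b, -0.07 to 0.10 for C3, -0.14 to 0.02 for Serping1, -0.03 to 0.12 for Cd59a in wild 12 d 20 Gy against 10 Gy, then -0.10 to 0.04 for C4b in *A. cahirinus* 24 h 20 Gy against untreated, then -0.11 to 0.03 for C1s1, -0.23 to 0.28 for Cfb, -0.02 to 0.12 for Cd55 in *A. cahirinus* 24 h 20 Gy against 10 Gy, then -0.21 to 0.10 for C1ra in *A. cahirinus* 12 d 20 Gy against untreated, then -0.24 to 0.15 for C1s1, -0.04 to 0.15 for Serping1 in *A. cahirinus* 12 d 20 Gy against 10 Gy, then -0.40 to 1.79 for C3 in 24 h untreated wild against C56BL6, then -0.21 to 0.27 for C1ra, -0.55 to 0.31 for C4b, -1.79 to 0.07 for C3 in 12 d untreated wild against C56BL6, then -0.55 to 2.11 for Cfb, -1.94 to 0.02 for Cd59a in 24 h 20 Gy against untreated, *A. cahirinus* minus C56BL6, then -0.57 to 0.28 for C4b, -2.40 to 2.23 for Cd59a in 12 d 20 Gy against untreated, *A. cahirinus* minus C56BL6, then -2.38 to 0.32 for Cd59a in 12 d passaged against untreated, *A. cahirinus* minus C56BL6, then -1.44 to 0.24 for Cfb in 24 h 20 Gy against untreated, *A. cahirinus* minus wild, then -1.83 to 2.58 for Cd59a in 12 d 20 Gy against untreated, *A. cahirinus* minus wild, then -1.70 to 1.45 for Cd59a in 12 d passaged against untreated, *A. cahirinus* minus wild, then -0.29 to 1.55 for C4b, -0.50 to 0.03 for Cd59a in 12 d 20 Gy against untreated, wild minus C56BL6, then -0.21 to 0.41 for Cd55 in 12 d passaged against untreated, wild minus C56BL6. None of these sign changes passed the threshold before or after. Cfb at 24 h in mice and C3 and Cd59a in *A. cahirinus* held few reads, in some libraries at or under the floor of 3 counts. Whether depth limited them was not tested.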
